A study of Rattus norvegicus with 16 samples.

Results

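The comparison described here is that of liver with bone marrow in untreated female rats. Its members are the 8 control libraries of a series of 16, 4 from liver and 4 from marrow, and the 9939 genes, of 32623 in the table, that had at least 10 counts in at least 4 of these 8 libraries. Both control groups came from Big Blue rats, a strain transgenic for a vector that carries cII and lacI, genes used as reporters of mutation, so every library carries the transgene. The strain is spelled Big Blue in the labels of 2 samples and Blig Blue in 14. The rats were 6 weeks old on arrival, had 1 week of acclimation, and were gavaged at 2 ml/kg with a dose of 0 mg/kg/day for 28 days; sampling followed 3 days after dosing ended, in groups of 6 rats of which 4 per group gave a library. The matching treated groups, used here only to repeat the tissue comparison, received 10 mg/kg/day of N-nitrosodiethylamine (NDEA) by the same schedule. The labels do not say whether a liver and a marrow library with the same number came from 1 rat, or which cage a rat came from. Nothing was sorted, so each library is a whole tissue with all its cell types, and p-values measure the spread between these libraries alone. QuantSeq was the library type: it primes at the poly(A) tail and gives 1 tag near the 3' end per transcript, and a count therefore does not grow with transcript length.

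NDEA does not alkylate DNA by itself. In liver, cytochrome P450 enzymes, above all CYP2E1 and members of the CYP2A family, hydroxylate the carbon next to the nitroso group, with electrons delivered by the reductase POR and by cytochrome b5. The product breaks down to an aldehyde, which aldehyde dehydrogenases oxidise, and to a diazonium ion that ethylates DNA bases. Ethyl groups on the O6 position of guanine are removed by MGMT in a single suicidal step, ethyl groups on ring nitrogens are handled mainly by glycosylases of base excision repair, and damage that is still there at replication can be fixed as mutation or become a break. The adult liver is a quiescent tissue whose hepatocytes divide seldom, whereas marrow holds dividing erythroid, myeloid and lymphoid precursors. The question of this comparison is how the enzymes of activation, the repair genes and the proliferation genes stand in the tissues before any treatment.

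Levels are given as normalised CPM: the counts of each library are brought to a common total over the tested genes, after a scaling between libraries by trimmed M values. Differences are log2 values of liver minus marrow from limma-voom, with their standard error (SE) and a p-value adjusted by the Benjamini-Hochberg method over all 9939 genes; a gene is called at an adjusted p under 0.05. Liver libraries held 5630838 to 6772923 counts and marrow libraries 2162182 to 5539409, with marrow control 1 the shallowest. Between 10545 and 11322 genes had a count in a liver library, and between 11054 and 11699 in a marrow library. All records of the mitochondrial chromosome together took 18.01% ± 1.85 (SD, n = 4) of the counts in liver and 8.83% ± 2.94 in marrow. These groups did not overlap (exact permutation test, two-sided, p = 0.0286, the smallest that 4 against 4 allows). The 13 listed mitochondrially encoded genes alone did not separate the tissues. Their sum was 98699 to 117308 normalised CPM in liver and 46312 to 117960 in marrow. Summed markers of skeletal muscle stood at 153 to 541 normalised CPM in marrow, highest in marrow control 3, and at 0.502 to 3.19 in liver. Log2 levels correlated across genes at 0.935 to 0.945 between liver libraries and at 0.893 to 0.950 between marrow libraries. Between a liver and a marrow library the mean correlation was 0.26. Genes are not independent replicates.

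Most genes differed between the tissues. Of the 9939 genes, 6586 (66.3%) were called: 3305 (33.3%) higher in liver and 3281 (33.0%) higher in marrow. Beyond 2-fold, by a test against that size, 2082 (20.9%) were higher in liver and 1921 (19.3%) in marrow. For 5848 genes (58.8%) the 4 liver values and the 4 marrow values did not overlap. The filter lets a gene in through a single tissue, and such a gene had to differ: 685 genes had 10 counts in no marrow library and 531 in no liver library. Among the 5997 genes with 10 counts in all 8 libraries, 1769 (29.5%) were called higher in liver and 1894 (31.6%) in marrow. The median difference over all genes was 0.01. With library totals that leave out mitochondrial genes and the 20 largest genes, that median shifted by -0.475, and the split became 2624 calls for liver and 4105 for marrow. No call of the main analysis turned into a call of the other direction under any of the settings tried. Whole tissue RNA does not tell a gene expressed in fewer cells from one with less RNA per cell.

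**Figure D1:**
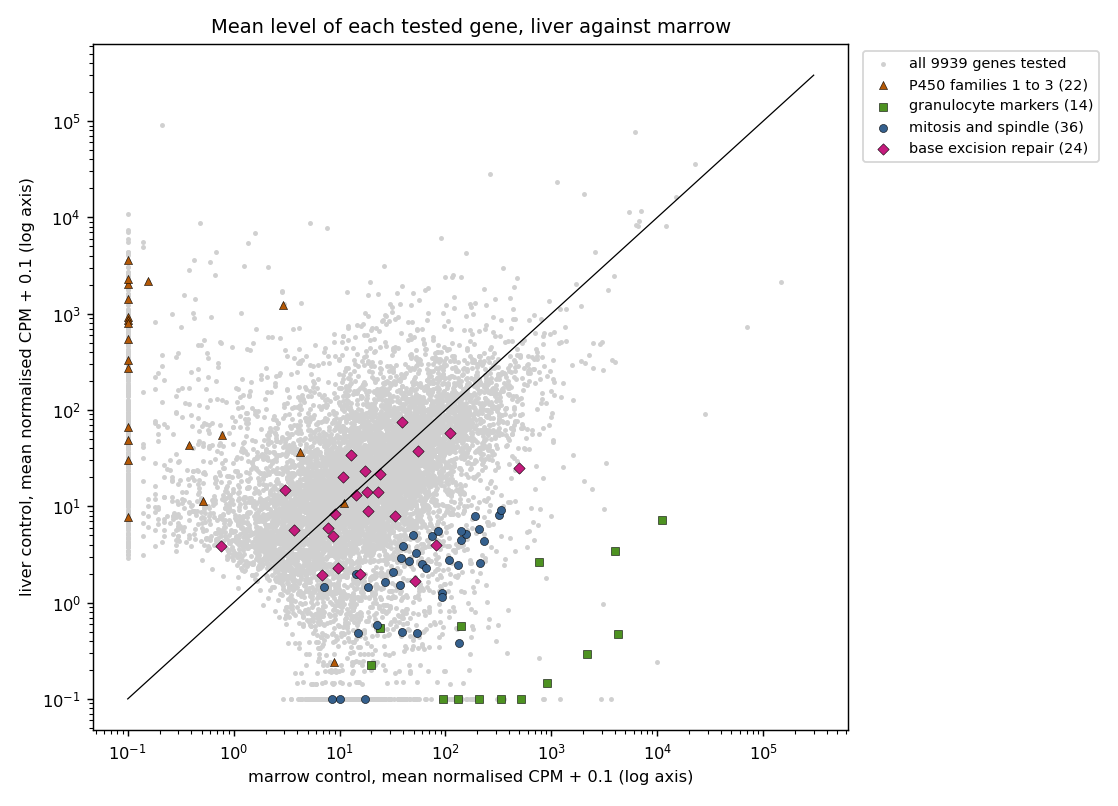
Mean level of each of the 9939 tested genes in the 4 marrow control libraries (horizontal axis) and the 4 liver control libraries (vertical axis), in normalised CPM with 0.1 added, both axes logarithmic; the line marks equal levels. P450 genes other than Cyp2s1 and Cyp2u1 lie above the line, at up to 3633 CPM in liver for Cyp2e1, mitosis and granulocyte genes lie below it, and base excision repair genes lie on both sides of it.

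The genes that mark the tissues followed the labels. Alb (ENSRNOG00000002911), which encodes serum albumin, stood at 102160, 78062, 95308 and 84940 normalised CPM in the 4 liver libraries and had 2 counts in the 4 marrow libraries together, a ratio of 890969 with a counting interval of 246645 to 7357030. Cyp2e1 (ENSRNOG00000012458, chromosome 1, position 213511874 of the deposited table) stood at 4168, 3131, 3707 and 3525 CPM in liver and had 0 counts in all 4 marrow libraries, so it was at least 23834-fold higher in liver, with the floor set at 3 counts over the 4 marrow libraries. Mpo (ENSRNOG00000008310, chromosome 10, position 75087892), the myeloperoxidase of granulocyte precursors, had 0 counts in liver and stood at 491, 514, 572 and 487 CPM in marrow, at least 3678-fold higher. Elane (ENSRNOG00000033685, chromosome 7, position 12638322), neutrophil elastase, had 0 counts in liver and stood at 266, 277, 79.5 and 204 CPM in marrow, at least 1474-fold higher, with marrow control 3 the lowest. Such floors cover counting error only, since the labels name no molecular identifiers. The table lists at 0 in all 8 libraries some genes that every cell uses, among them Rpl8 and Rps6 of the ribosome, so a gene listed at 0 need not lack transcripts.

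Promoters of marker genes are shown because these genes were near absent from 1 of the tissues. Each window covers 250 bases before the annotated start to 30 from it on, from RefSeq on assembly GRCr8, with capitals for matches to any of 8 motifs on either strand.
Alb promoter, chr14:17906950-17907229, minus strand: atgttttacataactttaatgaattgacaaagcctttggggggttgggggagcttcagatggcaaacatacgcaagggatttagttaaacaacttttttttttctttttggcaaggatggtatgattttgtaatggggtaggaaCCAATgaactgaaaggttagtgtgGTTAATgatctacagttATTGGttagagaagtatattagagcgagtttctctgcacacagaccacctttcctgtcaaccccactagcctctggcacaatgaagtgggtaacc
Cyp2e1 promoter, chr1:205269717-205269996, plus strand: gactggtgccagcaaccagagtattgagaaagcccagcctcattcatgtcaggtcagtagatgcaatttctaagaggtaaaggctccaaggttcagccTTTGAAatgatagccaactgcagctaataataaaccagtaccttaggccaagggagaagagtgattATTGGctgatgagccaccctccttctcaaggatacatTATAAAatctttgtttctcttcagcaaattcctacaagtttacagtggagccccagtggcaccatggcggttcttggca
Mpo promoter, chr10:73092152-73092431, plus strand: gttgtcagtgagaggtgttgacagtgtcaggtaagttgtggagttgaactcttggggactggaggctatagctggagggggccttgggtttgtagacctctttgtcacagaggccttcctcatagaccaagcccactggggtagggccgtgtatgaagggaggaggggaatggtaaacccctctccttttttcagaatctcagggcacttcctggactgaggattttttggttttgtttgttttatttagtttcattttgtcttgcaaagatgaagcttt
The motifs were the CCAAT box, which binds the factor NF-Y, and the TATA box of many regulated genes (TATAAA). Others were part of the site of the liver factor HNF1 (GTTAAT), a site of the blood cell factors of the GATA family (AGATAA) and a site of the ETS family found at many housekeeping genes (CCGGAAG). Of the cell cycle, the search took the cell cycle homology region CHR (TTTGAA), a first form of the site of the E2F factors (TTCCCGC) and a second form of that same site (TTGGCGC). The second E2F form holds letters that can overlap a CCAAT box read on the other strand. The Alb window held CCAAT boxes 106 and 65 bases before the start and the HNF1 letters 82 bases before it. The Cyp2e1 window held a CHR match, a CCAAT box and a TATA box at 152, 86 and 49 bases before the start, and the Mpo window held none of the 8. Of 12 hepatocyte marker genes with a RefSeq promoter, 3 (25%) held the HNF1 letters, against 7% of all 27456 promoters and 4.53% of those of the tested genes. A match is a stretch of letters, not a bound site.

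Of the P450 genes of families 1 to 3, the enzymes that oxidise drugs and nitrosamines, 22 passed the filter, and 20 were called higher in liver, 1 higher in marrow and 1 not at all. Of the 22, 18 passed through liver alone and 1 through marrow alone, so their counts follow from the filter. Cyp2d4 was the single member with 10 counts in all 8 libraries, at 29.6, 48.4, 30.2 and 39.7 CPM in liver and 4.86, 4.79, 3.77 and 3.21 CPM in marrow (8.76-fold, adjusted p = 2.01e-05). Summed over all members, P450 transcripts took 16370 to 17598 CPM in each liver library and 24.4 to 44.6 CPM in each marrow library. The median log2 difference was 10.27, or 9.92 with the 14 members at 0 in 1 tissue set at their bound.

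The forms tied to nitrosamines that were tested, Cyp2e1 and Cyp2a3, were on the liver side. Cyp2a1 was not analysed here. The record named Cyp2a3, the member of the CYP2A family tested here, stood at 687, 953, 869 and 1183 CPM in liver and had 0 counts in marrow (at least 6055-fold). Whether its counts include reads of other CYP2A genes was not tested. Cyp1a2, which oxidises aromatic amines, stood at 2296, 1768, 2046 and 2069 CPM and had 0 counts in marrow (at least 13413-fold). The liver level of Cyp2e1 was the highest mean of the list, 3633 CPM ± 430 (SD, n = 4), ahead of Cyp2c6v1 at 2308, Cyp2d2 at 2212 and Cyp1a2 at 2045. In this order Cyp2c6v1, Cyp2d2 and Cyp1a2 did not stand apart beyond their spread. Below them came Cyp2c23 at 1413, Cyp2d1 at 1227, Cyp2a3 at 923, Cyp2b3 at 860, Cyp2c22 at 797, Cyp2c12 at 545, Cyp2d5 at 327 and Cyp2c7 at 272 CPM. Cyp2c12 is the form of the female rat liver. The remaining liver-side members, Cyp2f4, Cyp2t1, Cyp3a18, Cyp2j4, Cyp3a9, Cyp2j10 and Cyp2b2, had liver means between 7.58 and 67.0 CPM. Members of the Cyp2a, Cyp2b, Cyp2c and Cyp2d subfamilies are close copies of each other. The treatment of reads that match several copies is not stated in the sources used here, which leaves the split among them uncertain.

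Marrow had P450 transcripts of its own at low levels. Cyp1b1, which did not pass the filter, had 0 counts in liver and 53 counts over the marrow libraries. Cyp2s1, a form of epithelia and blood cells, had 3 counts in liver and stood at 10.1, 5.43, 9.99 and 9.62 CPM in marrow, a ratio of 60.1 with a counting interval of 20.2 to 295. Cyp2u1, a fatty acid hydroxylase, stood at 8.21, 9.49, 16.0 and 9.58 CPM in liver and 3.37, 8.14, 25.1 and 6.73 CPM in marrow. These groups overlapped and Cyp2u1 was not called (log2 difference 0.22, SE 0.49, adjusted p = 0.70). Cyp2d1 had a marrow mean of 2.86 CPM, below 1% of its liver level.

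P450 enzymes need partners, and these were present in both tissues at unequal levels. Por (ENSRNOG00000001442, chromosome 12, position 23998411), the reductase that feeds electrons to all microsomal P450s, stood at 378, 645, 323 and 332 CPM in liver and 74.5, 116, 119 and 103 CPM in marrow. Every liver library lay above every marrow library, and the difference was 3.88-fold (log2 1.96, SE 0.24, adjusted p = 3.06e-06). Cyb5a, cytochrome b5, stood at 1825, 1871, 1872 and 1819 CPM in liver and 97.7, 72.0, 45.3 and 56.3 CPM in marrow, 29.1-fold higher in liver (adjusted p = 5.10e-11). Of the 18 partners and regulators tested, 15 were called higher in liver, 2 higher in marrow and 1 not at all. The liver share was 83.3%, against 33.3% of all tested genes. Of the 10 with 10 counts in all 8 libraries, 8 were called for liver and 2 for marrow. The regulators on the liver side included Hnf4a and Onecut1, transcription factors of hepatocytes, both with 0 counts in marrow at liver means of 376 and 352 CPM. Ahr, the receptor that induces Cyp1a2, had means of 121 CPM ± 15.4 in liver and 4.56 CPM ± 2.43 in marrow (adjusted p = 2.94e-07). Nr1i2, the xenobiotic receptor PXR, had a liver mean of 92.3 CPM and 2 counts in marrow (ratio 914, counting interval 253 to 7553).

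The marrow side of the partners list was led by Hmox1, heme oxygenase, which breaks down the heme that P450s and hemoglobin carry. It stood at 62.6, 105, 52.7 and 39.7 CPM in liver and 759, 1076, 514 and 964 CPM in marrow, 13.1-fold higher in marrow (log2 -3.71, SE 0.29, adjusted p = 1.70e-08). Cyb5r1, a cytochrome b5 reductase, had means of 6.14 CPM in liver and 28.0 CPM in marrow (log2 -2.23, adjusted p = 7.82e-05).

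Genes of aldehyde clearance were mostly higher in liver. Most are aldehyde and alcohol dehydrogenases, some of which take up the acetaldehyde released from NDEA. The list also held Cat, Esd and Akr1a1, described below. Of 16 tested, 13 were called for liver (81.2%, against 33.3% of all tested genes) and 1 for marrow. Of the 7 with 10 counts in all 8 libraries, 5 were called for liver, Cat and Esd among them, and 0 for marrow. Aldh2 (ENSRNOG00000001344, chromosome 12, position 40466495), the mitochondrial enzyme with the main part in acetaldehyde oxidation, stood at 987, 1027, 970 and 1066 CPM in liver and 129, 114, 54.0 and 82.9 CPM in marrow. The groups were far apart, with an 11.4-fold difference (log2 3.51, SE 0.22, adjusted p = 1.69e-09). The record named Adh6, an alcohol dehydrogenase, stood at 4420, 4067, 4703 and 4396 CPM in liver and had 0 counts in marrow (at least 28842-fold). Aldh1a1, the cytosolic retinal and acetaldehyde dehydrogenase, stood at 221, 222, 210 and 184 CPM in liver and 0, 0.638, 0 and 0.802 CPM in marrow; its log2 difference of 9.27 was 8.65 without marrow control 3. Adh5, which clears formaldehyde bound to glutathione, was 17.2-fold higher in liver at a mean of 320 CPM ± 32.8.

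Other members of this list showed smaller or opposite differences. Cat, catalase, was 5.21-fold higher in liver and Esd, an esterase that ends formaldehyde clearance, had means of 114 and 16.7 CPM. Akr1a1, an aldehyde reductase, had means of 173 and 156 CPM and Aldh16a1 of 22.9 and 18.4 CPM, neither called. Aldh3b1, which oxidises fatty aldehydes, had 3 counts in liver and stood at 18.3, 14.2, 21.3 and 10.3 CPM in marrow (ratio 108, counting interval 36.6 to 527). Aldh3a2, Aldh7a1, Aldh8a1, Aldh1b1 and Adh7 had liver means between 85.0 and 444 CPM, and none of them exceeded 11.5 CPM in the marrow mean. Aldh1a3 and Aldh9a1, with liver means of 11.7 and 13.5 CPM, were also called for liver; the log2 difference of Aldh1a3 was 4.25 and ran from 3.24 without marrow control 3 to 5.01 without marrow control 4, with 3.66 without marrow control 1 and 4.94 without marrow control 2. That of Aldh9a1 went from 5.32 to 6.07 without marrow control 4, and that of Aldh7a1 from 6.46 to 5.81 without marrow control 3.

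Glutathione S-transferases, which conjugate reactive intermediates to glutathione, were mostly higher in liver. Of 20 tested, 16 were called for liver (80%, against 33.3% of all tested genes), 3 for marrow and 1 not at all. Among the 12 with 10 counts in all 8 libraries the numbers were 9 for liver and 3 for marrow. Mgst1, the microsomal form, stood at 4097, 4052, 4472 and 4428 CPM in liver and 123, 185, 137 and 176 CPM in marrow (27.4-fold, adjusted p = 1.06e-11). Gstm1, of the mu class, was 33.0-fold higher in liver, with means of 595 CPM ± 109 and 17.9 CPM ± 7.78. Gsta5, of the alpha class, had a liver mean of 213 CPM and 0 counts in marrow. Gstt3 had means of 471 and 5.74 CPM, a log2 difference of 6.91 that was 6.08 without marrow control 2. The alpha and mu genes are close copies, so their split is uncertain.

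Gstp1 (ENSRNOG00000018237, chromosome 1, position 219291679), the pi class enzyme whose rise marks preneoplastic foci in rat liver, went the other way. It stood at 26.5, 39.5, 35.6 and 19.95 CPM in liver and 81.6, 129, 159 and 107 CPM in marrow. All marrow values lay above all liver values, a 3.99-fold difference (log2 -1.995, SE 0.27, adjusted p = 9.51e-06). Gstm5 and Gsta6 were the others on the marrow side, at means of 24.0 and 47.1 CPM against 5.07 and 25.7 CPM in liver.

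**Figure D2:**
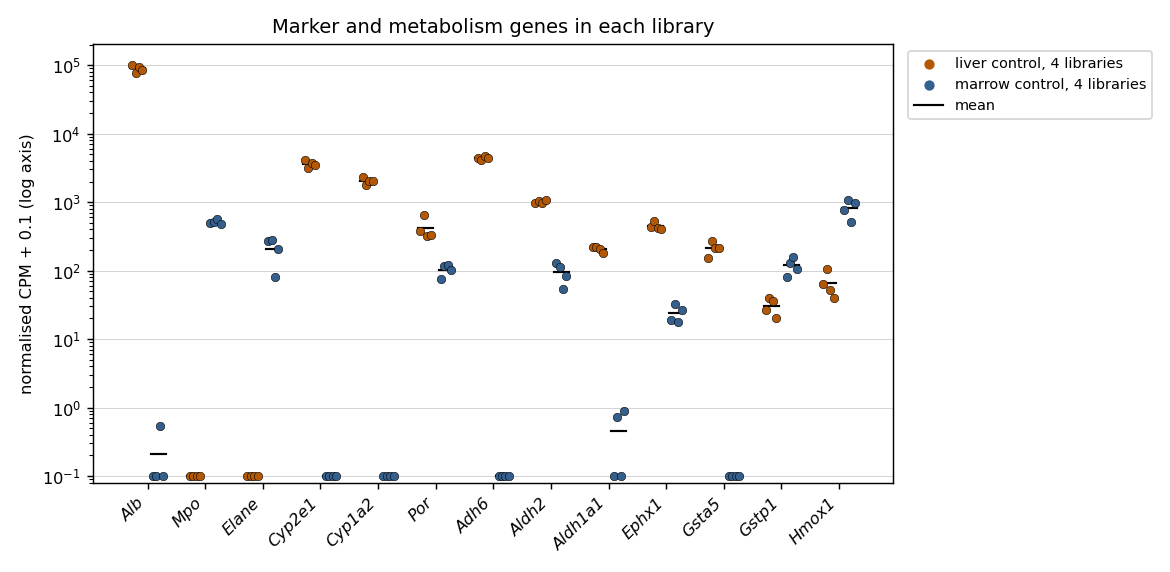
Normalised CPM with 0.1 added (logarithmic axis) of 13 marker and metabolism genes in each liver control (left points) and marrow control (right points) library; short lines are the means of 4 libraries. Cyp2e1, Cyp1a2 and Adh6 sit at the bottom of the axis, at 0 counts, in every marrow library, while Gstp1 and Hmox1 are higher in marrow.

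The antioxidant genes, many of them targets of the stress factor NRF2, differed less. Of 15 tested, 10 were called for liver (66.7%, against 33.3% of all tested genes) and 3 for marrow. The median log2 difference was 0.90. Ephx1, the microsomal epoxide hydrolase, stood at 440, 535, 424 and 403 CPM in liver and 18.7, 32.4, 17.8 and 26.3 CPM in marrow (18.5-fold, adjusted p = 6.38e-10). Nfe2l2, which encodes NRF2, had means of 190 CPM ± 25.7 and 71.0 CPM ± 5.54 (2.65-fold, adjusted p = 7.50e-06). Sod1, which dismutates superoxide, was 4.65-fold higher in liver. Gpx1, a peroxidase, was called for liver at 1.76-fold and had an adjusted p of 0.17 with library totals that leave out mitochondrial and the 20 largest genes. Hmox1 and Gclm were among those on the marrow side, and Gclm, of glutathione synthesis, had means of 64.1 and 140 CPM.

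DNA repair genes were found in both tissues. Against a background of 33.0% of all tested genes called for marrow, the share was 69.2% of mismatch repair, 60.7% of homologous recombination, 33.3% of base excision and 25% of nucleotide excision repair genes. Some recombination genes passed the filter through marrow alone; of those with 10 counts in all 8 libraries 2 of 9 were called for marrow, against 31.6% of all such genes, and of mismatch repair genes 6 of 8. The lists are described in the order in which alkylation damage meets them.

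**Figure D3:**
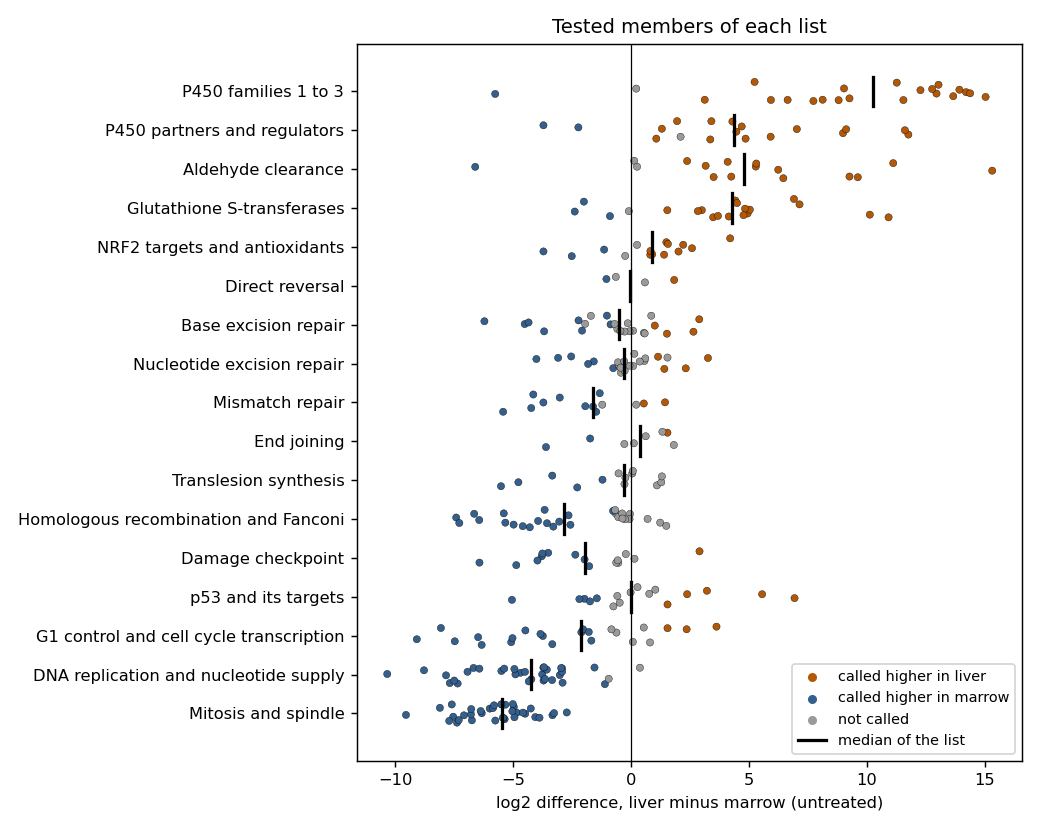
Log2 difference of liver minus marrow (horizontal axis) for each tested member of 17 gene lists (rows); each point is a gene, coloured by its call, and the black bar is the median of the list. Metabolism lists lie to the right (median 10.27 for P450 genes), repair lists around or left of 0, and replication and mitosis lists to the left (medians -4.22 and -5.48).

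Direct reversal comprises MGMT and the ALKBH dioxygenases, which remove alkyl groups with no cut in the strand. Mgmt (ENSRNOG00000016038, chromosome 1, position 209237233) stood at 28.5, 29.4, 39.5 and 30.3 CPM in liver and 48.3, 68.0, 76.6 and 65.4 CPM in marrow. The groups did not overlap, and marrow was 2.06-fold higher (log2 -1.04, SE 0.23, adjusted p = 0.000965); the test against 2-fold was not passed (adjusted p = 0.693). Alkbh2, which repairs alkylated bases in paired DNA, stood at 11.2, 9.87, 13.0 and 4.19 CPM in liver and 1.12, 3.83, 0.666 and 7.05 CPM in marrow. Its groups overlapped, and its call for liver (log2 1.83, SE 0.72, adjusted p = 0.035) was lost without liver control 1, 2 or 3 or marrow control 1, 2 or 3, with adjusted p from 0.051 to 0.146, and with library totals alone (0.0756). Alkbh3 had means of 23.1 CPM ± 3.32 and 15.1 CPM ± 1.29 and was not called (adjusted p = 0.078). Alkbh1 had means of 11.0 CPM ± 3.49 and 17.8 CPM ± 4.92 and was not called (adjusted p = 0.124).

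The Mgmt promoter is shown because this gene acts first on the O6 lesion.
Mgmt promoter, chr1:201140582-201140861, plus strand: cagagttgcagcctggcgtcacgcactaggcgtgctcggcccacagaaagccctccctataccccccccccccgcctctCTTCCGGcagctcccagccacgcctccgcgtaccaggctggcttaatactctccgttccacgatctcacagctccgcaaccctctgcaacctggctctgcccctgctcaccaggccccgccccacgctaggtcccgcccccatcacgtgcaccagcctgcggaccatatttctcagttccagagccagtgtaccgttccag
It held 65.4% G and C, against medians of 52.1% over all promoters and 60.4% over those of tested genes, and 1 motif of the 8, an ETS site on the minus strand 171 bases before the start. ETS sites were held by 18.1% of the promoters of tested genes.

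Base excision repair, which cuts out single damaged bases, had 24 tested genes, of which 8 were called for marrow, 4 for liver and 12 not at all. The glycosylase that removes alkylated purines, Mpg, was low in both tissues, at 8.37, 7.97, 7.98 and 8.18 CPM in liver and 9.36, 3.35, 10.9 and 12.3 CPM in marrow (log2 0.09, SE 0.48, adjusted p = 0.876). Ung, the uracil glycosylase, was on the liver side, at 77.5, 72.3, 67.9 and 84.6 CPM against 46.4, 31.6, 44.2 and 33.7 CPM (2.02-fold, SE 0.22 on the log2 scale, adjusted p = 0.000719). Ogg1 and Mutyh, which deal with oxidised guanine and its mispairs, were on the marrow side. Ogg1 stood at 1.67, 1.52, 0 and 4.39 CPM in liver and 18.3, 27.0, 5.77 and 11.2 CPM in marrow (log2 -3.68, adjusted p = 0.00371; -2.55 without liver control 3 and -4.37 without liver control 4). Mutyh had means of 1.56 CPM ± 1.84 and 51.2 CPM ± 15.7 (log2 -6.21; -5.28 without liver control 2 and -7.04 without liver control 3).

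Genes of the later steps of base excision repair were called in both directions. Apex1, the endonuclease that cuts at abasic sites, had means of 23.2 CPM ± 3.14 and 17.1 CPM ± 11.1 and was not called (adjusted p = 0.211); without marrow control 2, its highest marrow library, it was called for liver (log2 1.03, adjusted p = 0.0248). Polb, the polymerase of the short patch route, had means of 5.82 and 7.75 CPM and was not called (adjusted p = 0.546). Lig3, the ligase of that route and of mitochondria, was 2.88-fold higher in liver (adjusted p = 0.00102), and Polg, the mitochondrial polymerase, had means of 14.7 and 2.97 CPM (log2 2.65; 1.87 without marrow control 4). Fen1 and Lig1, which serve the long patch route and also Okazaki fragments, were higher in marrow. Lig1 stood at 13.6, 25.8, 36.4 and 24.9 CPM in liver and 457, 402, 699 and 406 CPM in marrow, a 20.3-fold difference (log2 -4.34, SE 0.30, adjusted p = 4.50e-09). Fen1 stood at 5.36, 6.26, 1.17 and 2.79 CPM in liver and 109, 73.6, 67.5 and 72.6 CPM in marrow (22.7-fold, adjusted p = 2.08e-06). Parp1, the sensor of strand breaks, was 1.82-fold higher in marrow (adjusted p = 0.00777), with overlapping groups. Nthl1, Neil1, Tdg, Parp2 and Xrcc1 were not called, with mean levels between 10.7 and 54.9 CPM in either tissue; Xrcc1 was called for liver without liver control 4 (adjusted p = 0.0386).

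Mismatch repair, which also reads unrepaired O6-alkylguanine paired with thymine, had 13 tested genes, 9 called for marrow and 2 for liver. Of these 9, 6 are factors shared with replication: Pcna, Pold1 and Rfc2 to Rfc5. Pcna, the sliding clamp, stood at 33.7, 22.8, 29.2 and 9.58 CPM in liver and 315, 253, 255 and 339 CPM in marrow (13.1-fold, adjusted p = 3.45e-08). Of the mismatch proteins themselves, Msh6 had means of 9.64 CPM ± 2.69 and 31.3 CPM ± 17.01 (2.78-fold higher in marrow, adjusted p = 0.00603). Msh3 went the other way, at 42.9, 53.9, 65.2 and 44.5 CPM in liver and 14.2, 20.1, 21.3 and 17.6 CPM in marrow (2.72-fold higher in liver, adjusted p = 0.000196). Msh3 and Msh6 are the alternative partners of the same mismatch sensor. Rfc1, at 1.46-fold higher in liver, lost its call without any 1 of liver controls 2 to 4 or marrow controls 1 and 2 (adjusted p from 0.0521 to 0.109).

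Nucleotide excision repair, which removes bulky lesions, had 24 tested genes, 6 called for marrow, 4 for liver and 14 not at all. Xpc, which finds the lesion, stood at 42.5, 65.5, 66.3 and 86.6 CPM in liver and 7.86, 9.10, 22.2 and 13.5 CPM in marrow (5.01-fold higher in liver, SE 0.36 on the log2 scale, adjusted p = 3.34e-05). The groups did not overlap. Ddb1, of the damage-binding ubiquitin ligase, was 2.98-fold higher in marrow and Rpa1, which coats single strands in replication as well, 5.79-fold. Ercc3, a helicase of the opening step, had means of 46.8 and 64.7 CPM and was not called (adjusted p = 0.069), but was called for marrow without liver control 2 (0.04) or marrow control 1 (0.0231).

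Homologous recombination and the Fanconi anemia pathway, which restore broken and crosslinked DNA during replication, leaned to marrow with no gene called for liver: 17 of 28 tested were called for marrow. Of the 28, 5 passed the filter through marrow alone, and of the 9 with 10 counts in all 8 libraries 2 were called for marrow and 0 for liver. Brca1 stood at 6.70, 0.190, 2.53 and 4.19 CPM in liver and 20.6, 20.6, 17.3 and 26.5 CPM in marrow (log2 -3.29, SE 0.71, adjusted p = 0.000714; -2.31 without liver control 2). Rad54l, a motor protein of strand exchange, had means of 0.679 CPM ± 0.662 and 49.7 CPM ± 18.3 (log2 -6.65; -5.77 without liver control 1). Fancb, of the Fanconi core complex, had 0 counts in liver and stood at 14.6, 15.3, 19.3 and 14.6 CPM in marrow (at least 114-fold). Blm, the helicase lost in Bloom syndrome, was 8.22-fold higher in marrow at a mean of 30.8 CPM. In contrast, Rad50 (means of 39.9 and 50.7 CPM) and Nbn (31.0 and 33.7 CPM), which sense breaks in resting cells too, were not called.

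End joining, the break repair open to resting cells, had 8 tested genes. Of these, 2 were called for marrow (25%, against 33.0% of all tested genes), 1 for liver and 5 not at all. Xrcc6, the Ku70 subunit, stood at 14.4, 29.2, 12.6 and 15.4 CPM in liver and 47.9, 49.0, 74.6 and 55.9 CPM in marrow (3.32-fold, adjusted p = 9.57e-05). Xrcc5, the Ku80 subunit, had means of 9.68 and 11.7 CPM and was not called (adjusted p = 0.546). Prkdc, the kinase that Ku recruits, had means of 10.3 and 5.91 CPM, not called (adjusted p = 0.0725) except without marrow control 2 (0.0317). Poll, a polymerase of this route, was called for liver (log2 1.55, adjusted p = 0.0194), a call lost without marrow control 1 (0.0551) or 3 (0.0683) and with library totals that leave out mitochondrial and the 20 largest genes (0.0903).

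Translesion synthesis, which copies past lesions at the price of errors, had 13 tested genes. Of these, 5 were called for marrow, a share of 38.5% near the 33.0% of all tested genes, and 0 for liver. Rad18, the ligase that marks PCNA for it, had means of 1.31 CPM ± 1.03 and 24.8 CPM ± 8.33 (log2 -4.77, adjusted p = 0.000163; -3.74 without liver control 3). Polk stood at 0, 4.74, 10.1 and 1.40 CPM in liver and 9.73, 11.5, 19.98 and 19.88 CPM in marrow, groups that overlapped (log2 -3.34; -1.85 without liver control 1 and -4.20 without liver control 3). Polh was called for marrow (adjusted p = 0.0477) and lost that call without liver control 1 or 4 or marrow control 1, 3 or 4 (0.0668 to 0.178); its log2 difference of -2.28 was -2.92 without liver control 3 and -1.25 without liver control 4. Rev3l, the catalytic subunit of polymerase zeta, had means of 18.6 and 17.3 CPM and was not called. Rev1 had means of 8.99 and 4.71 CPM and was not called (adjusted p = 0.0587).

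**Figure D4:**
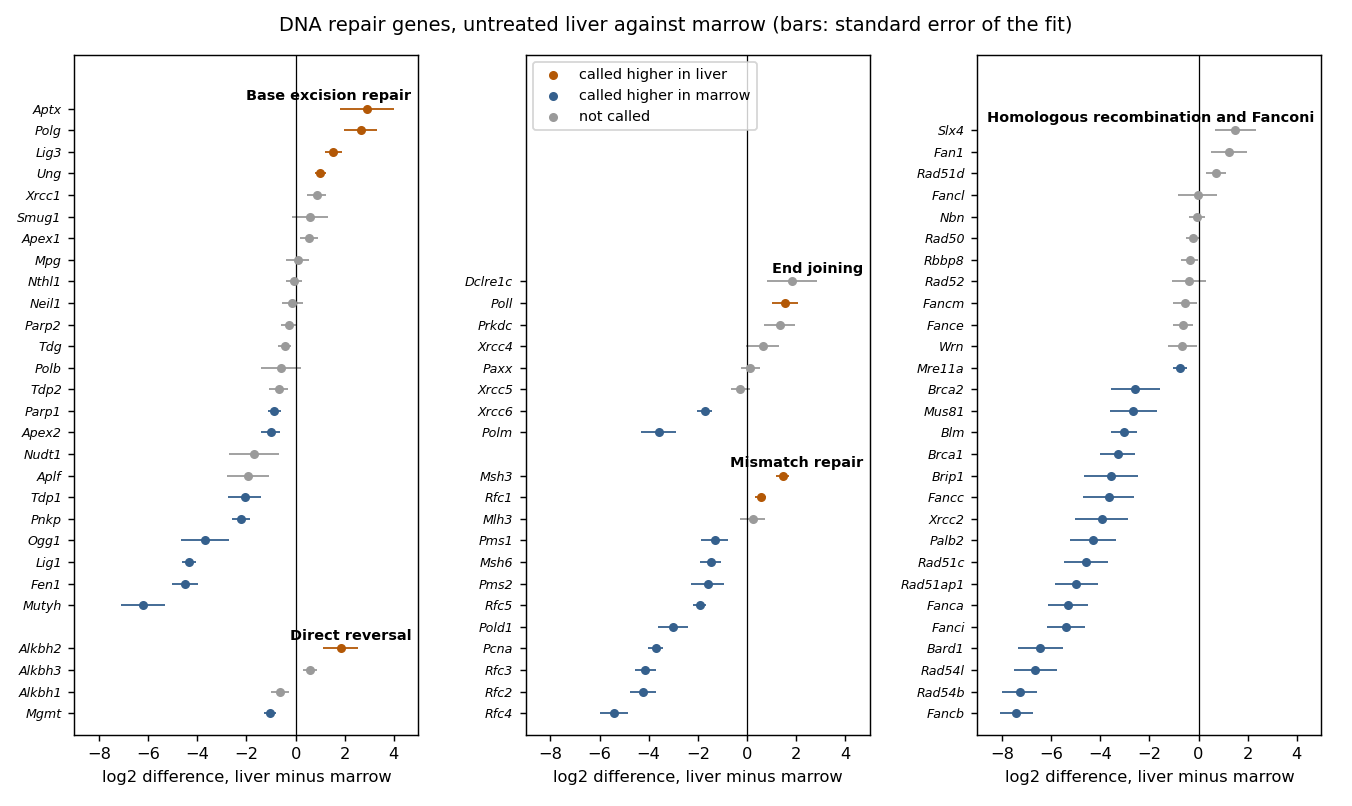
Log2 difference of liver minus marrow (horizontal axis) with the standard error of the fit (bars) for tested genes (rows) of direct reversal and base excision repair (left panel), mismatch repair and end joining (middle) and homologous recombination with the Fanconi pathway (right). The right panel holds no gene called higher in liver, while Ung, Lig3, Polg, Aptx and Msh3 are among those called higher in liver in the others.

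Checkpoint genes, which slow the cycle after damage, leaned to marrow. There 9 of 15 were called (60%, against 33.0% of all tested genes), and 1 was called in liver. Of the 15, 1 passed the filter through marrow alone. Of the 10 with 10 counts in all 8 libraries, 6 were called for marrow and 0 for liver, against 31.6% and 29.5% of all such genes. Wee1, the kinase that holds CDK1 back, stood at 5.69, 5.88, 3.31 and 2.79 CPM in liver and 41.5, 72.0, 78.6 and 78.2 CPM in marrow (15.6-fold, adjusted p = 2.69e-06). Timeless, of the replication fork, was 13.7-fold higher in marrow and H2afx, the histone phosphorylated at breaks, 11.4-fold. Chek2 had 2 counts in liver and a marrow mean of 13.2 CPM (ratio 137, counting interval 37.5 to 1137). The apical kinase Atm had means of 15.2 and 22.1 CPM and Atr of 3.78 and 5.54 CPM, neither called. Topbp1, the single gene called for liver, had means of 10.7 and 3.26 CPM (log2 2.91; 3.51 without marrow control 3 and 1.35 without marrow control 4).

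The p53 list was called in both directions, with 5 genes called for liver, 5 for marrow and 7 not at all. Either share was 29.4%, near the 33.3% and 33.0% of all tested genes. With library totals that leave out mitochondrial and the 20 largest genes, 8 of the list were called for marrow. Mdm2, which degrades p53, had means of 20.7 CPM ± 6.23 and 22.1 CPM ± 7.82 (adjusted p = 0.968). Cdkn1a, the p21 inhibitor of cyclin-dependent kinases, stood at 17.8, 51.8, 10.5 and 21.5 CPM in liver and 28.1, 12.8, 6.66 and 2.40 CPM in marrow. These groups overlapped, and its call for liver (log2 1.55, adjusted p = 0.0357) was lost without liver control 1, 2 or 4 or marrow control 3 or 4 (0.0525 to 0.228); its log2 difference was 0.81 without marrow control 4. Ccng1 stood at 52.6, 29.0, 31.3 and 43.5 CPM in liver and 214, 89.8, 67.9 and 104 CPM in marrow (log2 -1.45, SE 0.32, adjusted p = 0.000836). Gadd45a was 4.55-fold higher in marrow (adjusted p = 1.09e-05). Perp, a membrane protein of epithelia, had means of 43.7 CPM ± 9.92 in liver and 0.626 CPM ± 0.831 in marrow (log2 6.94; 7.73 without marrow control 2 and 6.18 without marrow control 4).

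Genes of DNA replication and nucleotide supply were called for marrow in 31 of 33 cases and for liver in 0. The marrow share was 93.9%, against 33.0% of all tested genes. Of the 13 with 10 counts in all 8 libraries, 12 were called for marrow, against 31.6% of all such genes. Summed over the list, they took 186 to 297 CPM in a liver library and 2450 to 3323 CPM in a marrow library. Mcm2, of the replicative helicase, stood at 4.19, 10.2, 6.03 and 6.38 CPM in liver and 59.1, 65.9, 31.8 and 44.6 CPM in marrow (7.58-fold, log2 -2.92, SE 0.43, adjusted p = 1.83e-05). Its partner Mcm5 had means of 1.21 CPM ± 1.10 and 139 CPM ± 8.03 (log2 -7.49; -8.08 without liver control 1 and -6.54 without liver control 4). Cdc6, which loads that helicase, had 0 counts in liver and stood at 95.4, 99.7, 156 and 139 CPM in marrow (at least 874-fold). Its loading partner Cdt1 had means of 1.43 and 243 CPM (log2 -7.84; -8.51 without liver control 2).

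Several enzymes of nucleotide supply were also higher in marrow. Dut, which keeps uracil out of DNA, stood at 14.9, 13.5, 10.3 and 13.0 CPM in liver and 339, 264, 381 and 360 CPM in marrow (25.6-fold, adjusted p = 6.61e-10). Tk1, thymidine kinase, was 22.5-fold higher in marrow and Rrm1, of ribonucleotide reductase, 10.2-fold. Tyms, thymidylate synthase, stood at 0, 3.23, 4.67 and 0 CPM in liver and 25.1, 24.3, 21.8 and 26.9 CPM in marrow (log2 -5.37), and its log2 difference ran from -4.39 without liver control 1 and -4.53 without liver control 4 to -6.18 without liver control 2 and -6.35 without liver control 3.

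Against 33.0% of all tested genes, all 36 tested genes of mitosis and the spindle were called for marrow. Of these, 8 passed through marrow alone, and the 3 with 10 counts in all 8 libraries, Mki67, Cdca8 and Spc24, were called too. The list took 35.3 to 173 CPM in a liver library and 3034 to 3482 CPM in a marrow library. Mki67 (ENSRNOG00000028137, chromosome 1, position 207993895), the Ki-67 antigen of dividing cells, stood at 2.85, 4.74, 4.67 and 5.19 CPM in liver and 180, 131, 125 and 127 CPM in marrow (32.2-fold, log2 -5.01, SE 0.43, adjusted p = 5.44e-08). Top2a, the topoisomerase of dividing cells, stood at 3.18, 19.0, 9.92 and 0.200 CPM in liver and 418, 326, 238 and 299 CPM in marrow. The liver libraries differed widely among themselves, and the log2 difference of Top2a, -6.37, was -7.18 without liver control 2 and -5.24 without liver control 4.

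The kinases and cyclins of mitosis followed. Cdk1 stood at 2.85, 4.37, 3.31 and 0 CPM in liver and 57.6, 42.1, 26.9 and 52.3 CPM in marrow (log2 -4.84, SE 0.87, adjusted p = 0.000138; -3.59 without liver control 4). Plk1, the polo kinase, stood at 1.67, 4.18, 4.09 and 0 CPM in liver and 161, 192, 256 and 248 CPM in marrow (log2 -7.30; -6.10 without liver control 4). Ccna2, cyclin A2, had 6 counts in liver and a marrow mean of 134 CPM (log2 -9.54; -10.48 without liver control 2). Cenpf, of the kinetochore, had means of 4.26 CPM ± 6.67 and 230 CPM ± 24.9 (log2 -8.10), and its log2 difference lay between -9.53 without liver control 2 and -7.10 without liver control 3, with -8.78 without liver control 1 and -7.12 without liver control 4. Ube2c, which ends mitosis with the anaphase-promoting complex, had means of 9.09 and 336 CPM (log2 -5.81; -5.05 without liver control 4).

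The promoters of Cdk1, Plk1 and Mcm2 are shown because genes of these lists moved together.
Cdk1 promoter, chr20:19265043-19265322, plus strand: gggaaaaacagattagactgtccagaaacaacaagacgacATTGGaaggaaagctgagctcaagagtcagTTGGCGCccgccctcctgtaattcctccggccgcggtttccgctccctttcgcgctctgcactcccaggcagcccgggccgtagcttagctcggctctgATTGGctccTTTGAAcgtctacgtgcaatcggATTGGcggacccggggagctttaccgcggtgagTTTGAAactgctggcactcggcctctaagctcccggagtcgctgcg
Plk1 promoter, chr1:186147408-186147687, plus strand: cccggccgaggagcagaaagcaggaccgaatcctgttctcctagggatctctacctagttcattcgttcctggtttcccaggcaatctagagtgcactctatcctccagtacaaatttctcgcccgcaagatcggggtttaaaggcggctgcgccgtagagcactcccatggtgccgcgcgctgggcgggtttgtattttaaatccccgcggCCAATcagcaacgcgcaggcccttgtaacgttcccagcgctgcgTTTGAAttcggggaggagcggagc
Mcm2 promoter, chr4:122918065-122918344, minus strand: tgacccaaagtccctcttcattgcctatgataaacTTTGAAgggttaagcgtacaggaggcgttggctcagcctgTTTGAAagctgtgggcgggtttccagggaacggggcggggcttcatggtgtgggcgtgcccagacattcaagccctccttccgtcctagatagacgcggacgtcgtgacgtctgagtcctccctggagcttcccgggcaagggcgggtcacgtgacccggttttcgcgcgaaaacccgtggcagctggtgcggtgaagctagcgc
The Cdk1 window held CHR matches 72 and 16 bases before the start, CCAAT boxes 210, 81 and 49 bases before it and the second E2F form 180 bases before it. The Plk1 window held a CCAAT box 38 bases before the start and a CHR match at base 7 from the start on. The Mcm2 window held CHR matches 215 and 175 bases before the start and neither E2F form. Other spellings of the E2F site were not searched, so this does not show that the window lacks such a site. Of the 30 tested mitosis genes with a promoter, 18 (60%) held the CHR and 23 (76.7%) the CCAAT box, against 11.5% and 37.7% of 7662 tested genes with a promoter and 17.2% and 36.5% of all promoters; 0 held the first E2F form. Of the 29 replication genes with a promoter, 10 (34.5%) held the first E2F form and 8 (27.6%) the second, against 7.77% and 4.09% of tested genes, 19 (65.5%) held the CCAAT box and 3 (10.3%) the CHR. Of the 21 P450 genes with a promoter, 8 (38.1%) held the TATA box, against 6.83% of tested genes and 13.8% of all promoters. Of these 21, 0 held the ETS site. The TATA box share was 25% for granulocyte markers and 80% for the 5 muscle markers with a promoter. The CHR was not particular to mitosis genes, as 7 (33.3%) of the P450 promoters and 4 (33.3%) of 12 translesion promoters held it. These shares are descriptions of letters in 280 bases.

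Genes of G1 control and cell cycle transcription were less uniform. For marrow, 15 of 23 were called (65.2%, against 33.0% of all tested genes), with 3 for liver and 5 not at all. Of the 23, 3 passed the filter through marrow alone. Of the 12 with 10 counts in all 8 libraries, 7 were called for marrow and 2 for liver, against 31.6% and 29.5% of all such genes. E2f2, an E2F activator, stood at 6.36, 1.52, 2.14 and 4.79 CPM in liver and 660, 511, 596 and 604 CPM in marrow (177-fold, log2 -7.47, SE 0.50, adjusted p = 3.02e-09). Mybl2, a late cell cycle factor, had 0 counts in liver and stood at 44.9, 46.4, 67.7 and 46.3 CPM in marrow (at least 366-fold). Ccne2, cyclin E2, had means of 1.68 and 50.5 CPM (log2 -6.48), which was -5.55 without liver control 1, -7.45 without liver control 2, -7.21 without liver control 3 and -5.68 without liver control 4. The D cyclins, which answer growth signals, were divided. Ccnd1 (ENSRNOG00000020918, chromosome 1, position 218090750) stood at 191, 146, 147 and 75.8 CPM in liver and 3.74, 14.2, 21.3 and 7.53 CPM in marrow, 12.4-fold higher in liver (log2 3.63, SE 0.46, adjusted p = 4.57e-06). Ccnd3 stood at 43.7, 35.3, 46.7 and 33.1 CPM in liver and 890, 502, 347 and 520 CPM in marrow, 13.3-fold higher in marrow (adjusted p = 1.25e-08). Ccnd2 had means of 3.67 and 1.12 CPM and was not called (adjusted p = 0.566), but was called for liver without liver control 4 (log2 2.17, adjusted p = 0.0109).

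The partner kinases and inhibitors added to this picture. Cdk6 had means of 4.46 and 19.7 CPM (log2 -2.03, adjusted p = 0.0019) and Cdk2 was 4.29-fold higher in marrow. E2f4, a repressor of resting cells, was 10.1-fold higher in marrow (adjusted p = 7.36e-07), whereas E2f3 was called for liver (log2 2.36, adjusted p = 0.0159), a call lost without marrow control 2 (0.0539) or 4 (0.0621). Of the inhibitors, Cdkn1c was 3.20-fold higher in marrow (adjusted p = 0.00103) and Cdkn1b was not called (means of 17.6 and 24.1 CPM, adjusted p = 0.158). Myc had means of 3.25 CPM ± 1.21 and 11.1 CPM ± 4.35 (3.45-fold higher in marrow, adjusted p = 0.0121).

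**Figure D5:**
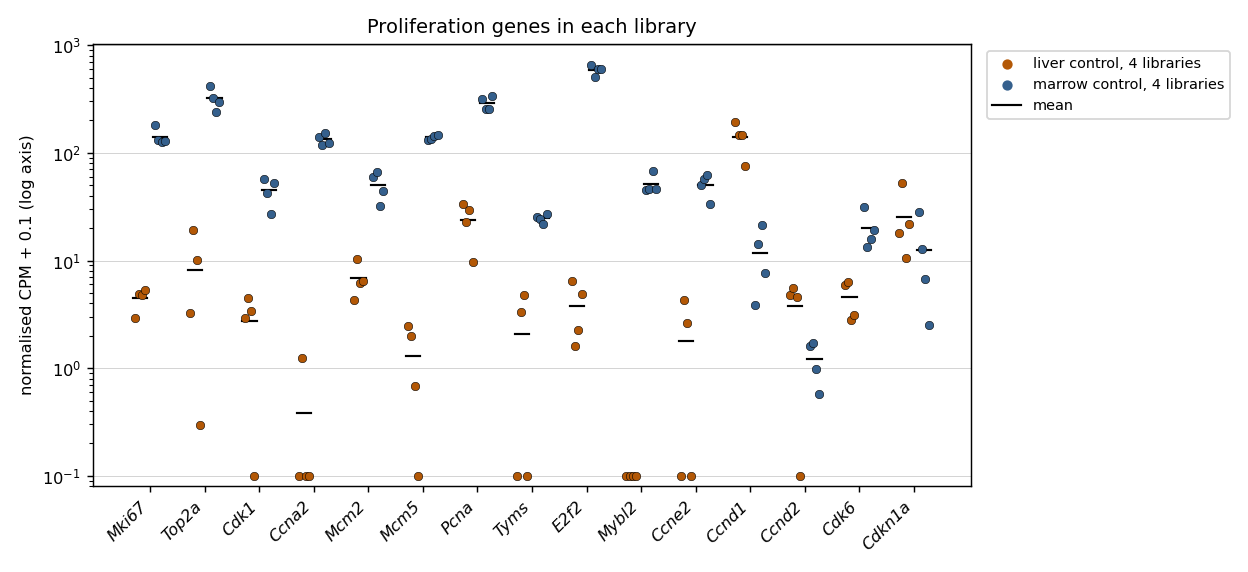
Normalised CPM with 0.1 added (logarithmic axis) of 15 proliferation genes in each liver control (left points) and marrow control (right points) library; short lines are the means of 4 libraries. Mki67, Top2a and E2f2 are above 100 CPM in every marrow library, while Ccnd1 alone of the 15 is above all marrow values in every liver library.

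The tissue comparison was repeated in the 8 libraries of treated rats, which share no library with the controls. There 10136 genes were tested, and 3651 (36.0%) were called for liver and 3039 (30.0%) for marrow. Of the 6586 genes called in controls, 6371 were tested again: 5336 (83.8%) were called in the same direction, 28 in the opposite and 1007 not at all. A test of the difference itself, in a fit of all 16 libraries, called 221 of the control-tested genes.

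Most enzymes of activation were called in the same direction in the treated libraries. Of the 21 P450 genes called in controls, 20 were tested again and all 20 were called in the same direction, as were all 17 partners and all 14 aldehyde genes. The other P450 gene, Cyp3a9, did not pass the filter in treated libraries, and its tissue difference was called as differing (4.77, adjusted p = 0.0254). Over the P450 genes tested in both sets the median was 11.27 in controls and 9.98 after treatment. In controls 14 of the 22 tested P450 genes had 0 counts in 1 tissue. These medians therefore depend on the prior count, and no bound was applied to them. Of the 22, 18 had passed the filter through liver alone, as had 6 partners and 5 aldehyde genes. Under the same filter the repeated calls of such genes were largely fixed in advance. For Cyp2e1 the log2 difference was 14.83 (SE 0.78) after treatment and for Por 2.27 (SE 0.22), and neither was called as differing from controls (adjusted p of the difference 0.962 and 0.628). Among conjugation genes, Gstp1 changed side: its log2 difference was 1.74 (SE 0.41, adjusted p = 0.00206) in treated libraries against -1.995 in controls (difference -3.79, adjusted p = 0.00246). For Ephx1 the tissue difference rose to 8.41 (difference -4.34, adjusted p = 0.00252), and for Gstm1 to 8.15 (difference -3.23, adjusted p = 0.00583).

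Mgmt was called in opposite directions, higher in marrow in controls and higher in liver after treatment (log2 1.18, SE 0.22, adjusted p = 0.000303; difference -2.28, adjusted p = 0.00202). Ung kept its side, with 0.84 (SE 0.25). Of the 36 mitosis genes, 28 (77.8%, against 83.8% over all genes called in controls) were called for marrow again. For liver 1 was called, Cdc20 (log2 0.81, adjusted p = 0.0194). The median was -2.14 against -5.48 in controls. The difference itself was called for 23 of the 36, against 221 of all 9939 control-tested genes. In controls 8 of the 36 had passed the filter through marrow alone. The log2 difference of Mki67 was -1.56 (SE 0.21) after treatment, against -5.01 in controls (difference -3.49, adjusted p = 0.00202). That of Cdk1 was 1.10 (SE 0.78, not called; difference -6.10, adjusted p = 0.0391). Of the 31 replication genes called for marrow in controls, 29 (93.5%, against 83.8% over all genes) were called for marrow again. The median over the 33 tested was -2.70, and 6 of the 33 had passed the filter through marrow alone in controls. Of the 17 tested genes of the p53 list, 10 were called for liver and 3 for marrow. The shares over all genes tested after treatment were 36.0% and 30.0%. The difference was called for 6 of the 17, among them Mdm2 (log2 2.10 after treatment, adjusted p of the difference 0.0112) and Cdkn1a (5.50, adjusted p of the difference 0.0165).

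Markers of the cell types described what the libraries held. Of 14 hepatocyte markers tested, 14 were called for liver; in marrow their sum was 825 to 1540 CPM, of which Tf, transferrin, had a mean of 1129 CPM. The markers of granulocytes (14), erythroid cells (12), megakaryocytes (9), B lineage (7) and mast cells, basophils and eosinophils (8) were all called for marrow; many passed the filter through 1 tissue alone, so these counts describe the libraries and test nothing. In liver the granulocyte sum was 7.98 to 19.8 CPM and the B lineage sum 0.195 to 2.59 CPM. The erythroid sum was 1699 to 3614 CPM in liver, mostly Hba-a1, an alpha globin, at 1453, 3140, 2061 and 1796 CPM, against 106650, 159140, 174613 and 152129 CPM in marrow. Globin genes are close copies, so their split is uncertain. Slc4a1, the anion exchanger of red cells, was 120-fold higher in marrow. The part of these cell types in the repair and proliferation differences was not tested.

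Cells of both tissues were divided by subtype. Of 13 macrophage markers, 3 were called for liver (23.1%, against 33.3% of all tested genes) and 5 for marrow (38.5%, against 33.0%). Through liver alone, 3 of the 13 passed the filter. Marco and Vsig4, receptors of Kupffer cells, the macrophages of liver sinusoids, had liver means of 102 CPM ± 26.4 and 58.8 CPM ± 6.01 and 0 counts in marrow; Clec4f, a Kupffer cell lectin of rodents, was at 107 and 0.458 CPM. Cd163, a receptor for hemoglobin, was 5.89-fold higher in marrow (adjusted p = 5.47e-08), and Csf1r, common to macrophages, was not called (means of 37.7 and 38.4 CPM, adjusted p = 0.726). All 7 markers of sinusoidal endothelium were called for liver, against 33.3% of all tested genes. Of 11 markers of marrow stroma and bone, 10 were called for marrow (90.9%, against 33.0% of all tested genes). Of the 11, 6 passed the filter through marrow alone, so their calls follow from the filter. Among the 10 was Bglap, osteocalcin, with a marrow mean of 828 CPM and 0 counts in liver. The 9 markers of stellate cells and fibroblasts went both ways, with 3 called for liver, 3 for marrow and 3 not at all. Either share was 33.3%, near those of all tested genes. Of these, Lrat, which stores retinol in stellate cells, had a liver mean of 26.7 CPM and 0 counts in marrow. Col1a1, a collagen gene of fibroblasts that bone also expresses, stood at 4798, 3630, 2061 and 2520 CPM in marrow against a liver mean of 27.9 CPM. All 7 tested markers of skeletal muscle were called for marrow, but 6 of them passed the filter through marrow alone. Acta1, the actin of muscle fibres, had 0 counts in liver and stood at 31.4, 38.3, 128 and 57.6 CPM in marrow, highest in marrow control 3. The part of muscle RNA in the marrow results was not tested.

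The genes with the largest differences are given by tissue. On the liver side, Alb was followed by Ttr, the carrier transthyretin (10824 CPM ± 729), Fabp1, which binds fatty acids (7490 CPM ± 1323), Sult2a2, a sulfotransferase (7107 CPM ± 1082), and Serpina1, antitrypsin (6030 CPM ± 931); these 4 had 0 counts in marrow. On the marrow side, the granule genes RatNP-3b (10050 CPM ± 565), a defensin, Prg2 (3633 CPM ± 180), of eosinophils, Np4 (2926 CPM ± 446), another defensin, Ngp (4253 CPM ± 453) and Camp (2168 CPM ± 346) led, and none of them exceeded 0.377 CPM in the liver mean.

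Housekeeping programmes had smaller median differences than the P450, replication and mitosis lists. Of 12 mitochondrially encoded genes 8 were called for liver (66.7%, against 33.3% of all tested genes) and 0 for marrow. The median log2 difference was 0.82. Beyond 2-fold, 3 were higher in liver. Large single differences were those of Mt-nd6 (log2 5.73) and Mt-nd4l (log2 3.16). The count called for liver was 12 without marrow control 3. It was 5 with library totals that leave out mitochondrial and the 20 largest genes, and also 5 with limma-trend at a prior of 0.5. Of 21 cytosolic ribosomal protein genes 11 were called for marrow (52.4%, against 33.0% of all tested genes) and 3 for liver. Rps3 led those of marrow at a log2 difference of -2.73. Rpl10 was higher in liver (log2 2.06), and Rpl32, also called for liver, lost its call without liver control 3 or marrow control 3 or 4 (adjusted p from 0.0593 to 0.127).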

How the data were processed

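Counts per gene for 16 QuantSeq libraries of liver and bone marrow were deposited by the authors in 1 table. The submitters' processing notes name STAR and DESeq2, with no version, build or order; how reads with several matches were counted is not given in the sources used here. Per the file headers the columns hold whole numbers per library and totals per group. Because 12 records were broken over lines, the columns were recorded as other values; the records were rejoined, giving 32623 genes, and the 16313 records with group totals all matched the sums of the rejoined counts. For that reason limma-voom was the test, and the quasi-likelihood count model intended as a comparison was not run.

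Genes with at least 10 counts in at least 4 of the 8 control libraries were kept. Scaling factors came from trimmed M values (trims 0.3 and 0.05). The model was fitted with limma 3.58.1 in R 4.3.3, with a voom prior count of 0.5 and Benjamini-Hochberg adjustment. The procedure was tested on simulated data in which few genes changed, equally in both directions. Most genes differed between these tissues, so that simulation could not test the scaling between them. Replicate numbers do not pair the tissues in the labels, so no block was used. Counting intervals are 95% exact intervals.

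Members and lists were chosen with earlier results of these data known. The genes named are a list of genes on activation, repair and proliferation, all tested P450, aldehyde and direct reversal genes, from each list without markers the 2 genes per direction that differed most and were called, with an average log2 CPM of 2 or more, and the 5 largest differences in each direction with an average log2 CPM of 4 or more. Other members were added after their values were seen. Of 641 list entries, 608 matched a record, 4 of them by an older name. Cyp2a1, Cyp2b1, Adh1 and Chek1 were not analysed here, and a few other genes are not reported here. Positions are those of the deposited table, whose build is not given in the sources used here; promoters and their coordinates are from RefSeq on GRCr8, which gave 7 of the 8 sought.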

Additional observations from a re-analysis of the deposited data

Results flagged for a closer look

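In 20 of 350 groups of 4 libraries, 1 library lay farther from the others than the 95% value of Dixon's test; chance gives about 1 in 20 groups. Liver control 1 stood apart for Esd at 130 and Mcm6 at 5.86 normalised CPM. Liver control 2 stood apart for Poll at 9.68, Por at 645, Xrcc6 at 29.2, Cdca8 at 11.2, Cdkn1c at 8.16 and Nbn at 46.5 normalised CPM. Liver control 3 stood apart for Mdc1 at 5.64 and Mgmt at 39.5 normalised CPM. Liver control 4 stood apart for Cyp2j10 at 19.1 and Rev1 at 11.6 normalised CPM. Marrow control 1 stood apart for Fen1 at 109, Mki67 at 180 and Gclm at 108 normalised CPM. Marrow control 2 stood apart for Cyp2s1 at 5.43 normalised CPM. Marrow control 3 stood apart for E2f3 at 6.44, Mutyh at 74.6, Mybl2 at 67.7 and Fancb at 19.3 normalised CPM.

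The tissue difference itself (log2, liver minus marrow) was called as differing between control and NDEA libraries for 29 of the 207 genes followed. The test was one of that difference in limma over all 16 libraries. Over all 9939 control-tested genes it called 221. Among genes of mitosis and the spindle, the difference in controls minus that in NDEA libraries was -4.63 for Ccna2, -6.10 for Cdk1, -5.42 for Cenpf, -3.49 for Mki67, -4.72 for Top2a, -4.76 for Aurkb, -2.89 for Birc5, -2.21 for Cdca8, -3.63 for Plk1, -3.05 for Spc24 and -3.17 for Ube2c. Among genes of replication, nucleotide supply and cell cycle transcription, the difference in controls minus that in NDEA libraries was -4.77 for Cdc6, -1.85 for Dut, -1.63 for Lig1, -1.99 for Tk1, -4.33 for Tyms and -7.14 for Mybl2. Among genes of the damage response, the difference in controls minus that in NDEA libraries was -2.14 for Aen, -2.94 for Ccng1, -4.05 for Cdkn1a, -2.15 for Mdm2, -2.28 for Mgmt, -3.73 for Rad18, -4.68 for Chek2 and -5.26 for Fancb. Among genes of metabolism, the difference in controls minus that in NDEA libraries was 4.77 for Cyp3a9, -4.34 for Ephx1, -3.79 for Gstp1 and -3.23 for Gstm1. A negative value means that liver stood lower against marrow in controls than in NDEA libraries. Causes were not tested.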

How the results depend on the processing

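No call of the 6586 reversed under any of the settings tried. Of the rows followed gene by gene, 4313 kept direction and call, 42 gained a call, 81 lost one and 0 reversed. The numbers of calls moved most with the filter: with at least 10 counts in all 8 libraries, which drops genes nearly absent from 1 tissue, 1868 genes were called for liver and 1781 for marrow, 871 and 691 beyond 2-fold. Then 1 P450 gene, 8 partners, 5 aldehyde genes and 9 glutathione S-transferases were called for liver, and 4 base excision, 2 homologous recombination, 1 end joining, 1 translesion, 12 replication, 3 mitosis and 7 G1 genes for marrow; fewer members were tested there. With library totals alone 2 direct reversal genes were called for marrow. With totals that leave out mitochondrial and the 20 largest genes, marrow calls were 2 for direct reversal, 10 for nucleotide excision and 8 for the p53 list, and liver calls 6 for antioxidants and 5 for mitochondrial genes; the cause was not tested. A filter of 5 CPM, or thinning to the shallowest library, gave 11 homologous recombination and 3 translesion genes, and limma-trend with a prior of 0.5 gave 5 mitochondrial genes. No filter beyond 1 count gave 7408 calls in all and thinning 5754.

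Leaving out 1 library gave 3065 to 3215 calls for liver and 3075 to 3287 for marrow, and 1859 to 2055 and 1788 to 1950 beyond 2-fold. The difference in mitochondrial share was 8.331 to 10.58 percentage points; without liver control 2, 3 or 4 its p was 0.0571. The replicate block gave 3157 calls for liver and 3158 for marrow in controls, and 3294 and 2888 in NDEA libraries. Numbers were not shown to pair the samples: deviations of same-numbered libraries correlated at -0.0217 to 0.033, and not every library correlated best with its own number. The quasi-likelihood count model intended as a comparison was not run. Depth limits what a 0 shows, most in marrow control 1.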
